A study of Mus musculus with 11 samples.

Results

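Myc, its partners Max and Mycn and 7 genes known as targets of Myc in growth (Ncl, Npm1, Nop58, Polr1b, Nme1, Odc1 and Srm) were followed over 11 expression arrays of mouse B cell lymphomas. All 19 probe sets annotated to a single one of these 10 genes were taken, of 22626 probe sets on the array outside its controls, and none was shared with another gene. The 10 genes stand among 12393 that have a probe set of their own. The genes were chosen by results already seen in these same signals, by class and by spleen grade, so their differences are given as descriptions. The fits named below ran over every probe set that passed a filter on dim signals, and adjusted p-values are over all of them.

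The arrays held 5 transitional and 6 marginal lymphomas, 1 array per lymphoma. Every lymphoma arose in a mouse that carried the E-mu-BRD2 transgene on the FVB background, in which the immunoglobulin heavy chain enhancer drives the bromodomain protein BRD2 in lymphocytes, and every one was recorded as oligoclonal for immunoglobulin. The labels give no age, no treatment and no tissue from which the RNA was taken. They grade the enlargement of each spleen as marginal, mild, moderate, moderately severe or severe, ranked here from 1 to 5. The transitional group held 1 mild, 2 moderately severe and 2 severe spleens, and all 5 animals had failed to nest. The marginal group held 1 marginal, 3 mild and 2 moderate spleens, and its animals showed failure to nest in 2 cases, a tumour of the neck, leg or haunch in 1 case each, and paralysis in 1, marginal 6. The third class of lymphoma and the resting or activated B cells of the study were not analysed here, so no untreated or transgene-free level stands beside these signals.

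Myc is a transcription factor that binds DNA as a pair with Max, mainly at the E-box CACGTG, and raises genes for ribosome production, nucleotide supply, polyamine synthesis and metabolism. Mycn is its close relative, used mainly in embryonic and neural tissue. In B cells Myc is induced by antigen or mitogen, and translocation of Myc to an immunoglobulin locus is the classic lesion of Burkitt lymphoma and of mouse plasmacytoma. Ncl (nucleolin), Npm1 (nucleophosmin) and Nop58 work in the nucleolus, and Polr1b is the second largest subunit of RNA polymerase I, which transcribes ribosomal RNA. Nme1 is a nucleoside diphosphate kinase, Odc1 (ornithine decarboxylase) makes putrescine, and Srm (spermidine synthase) turns putrescine into spermidine.

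RefSeq promoter windows of build GRCm38.p6, each from 250 bases before to 50 bases after a start site, were at hand for 7 of the 10 genes. The windows of 5 genes are shown because these genes carry the array-to-array patterns described below, or hold the E-box through which Myc and Max bind. Each is written 5′ to 3′ on the gene's strand. Capitals mark the E-box CACGTG and a variant of it, CACGCG, which reads CGCGTG where the other strand holds it. They also mark the GC box GGGCGG, which reads CCGCCC where the other strand holds it. Both strands were searched, and no marked motifs overlapped.
Nme1, chr11:93968223-93968522, minus strand: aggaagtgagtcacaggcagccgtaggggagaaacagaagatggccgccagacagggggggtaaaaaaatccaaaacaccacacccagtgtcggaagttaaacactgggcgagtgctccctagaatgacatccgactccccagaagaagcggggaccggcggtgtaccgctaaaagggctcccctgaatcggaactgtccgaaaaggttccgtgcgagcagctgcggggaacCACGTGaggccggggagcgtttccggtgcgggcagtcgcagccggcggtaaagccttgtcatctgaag
Max, chr12:76962199-76962498, minus strand: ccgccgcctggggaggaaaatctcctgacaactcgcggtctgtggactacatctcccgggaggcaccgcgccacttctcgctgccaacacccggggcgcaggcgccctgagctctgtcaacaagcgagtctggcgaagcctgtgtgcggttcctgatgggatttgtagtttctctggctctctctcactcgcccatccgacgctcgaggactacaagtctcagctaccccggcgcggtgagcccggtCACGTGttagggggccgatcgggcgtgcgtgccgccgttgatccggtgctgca
Ncl, chr1:86359406-86359705, minus strand: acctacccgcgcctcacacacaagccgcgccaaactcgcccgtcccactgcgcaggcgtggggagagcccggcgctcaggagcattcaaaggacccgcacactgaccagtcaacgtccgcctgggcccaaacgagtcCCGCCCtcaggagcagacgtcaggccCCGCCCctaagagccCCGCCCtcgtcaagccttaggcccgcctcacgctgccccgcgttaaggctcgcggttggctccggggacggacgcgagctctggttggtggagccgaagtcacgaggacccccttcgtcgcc
Nop58, chr1:59684756-59685055, plus strand: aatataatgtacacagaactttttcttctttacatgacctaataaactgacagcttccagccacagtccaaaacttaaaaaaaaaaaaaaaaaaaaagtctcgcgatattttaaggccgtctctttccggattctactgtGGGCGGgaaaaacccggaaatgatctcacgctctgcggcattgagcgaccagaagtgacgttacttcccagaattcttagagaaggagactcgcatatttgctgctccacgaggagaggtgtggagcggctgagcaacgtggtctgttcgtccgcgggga
Odc1, chr12:17544623-17544922, plus strand: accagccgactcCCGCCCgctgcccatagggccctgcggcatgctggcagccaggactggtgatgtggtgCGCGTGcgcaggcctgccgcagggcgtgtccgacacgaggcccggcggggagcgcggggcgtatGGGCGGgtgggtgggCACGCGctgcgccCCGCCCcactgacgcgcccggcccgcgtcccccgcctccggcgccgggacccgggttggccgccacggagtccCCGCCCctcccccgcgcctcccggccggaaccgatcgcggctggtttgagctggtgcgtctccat

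The E-box CACGTG stood in the windows of 2 of the 7 genes. In the Nme1 window it began at position -18 relative to the start site, and the window of a second Nme1 start site held another at position -29. In the Max window it began at position -3. Of all 32851 promoter windows in the table, 7.15% held this E-box. The variant CACGCG occurred 2 times in the Odc1 window and in 9.27% of all windows. The GC box occurred 4 times in Odc1, 3 times in Ncl, 2 times in Mycn and 1 time each in Nop58 and Polr1b, and in 35.7% of all windows. These matches describe letters in a window of fixed length, and binding was not measured.

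The deposited values are MAS5 signals, a linear brightness per probe set scaled by the authors, and the trimmed mean was 500.2 on every array. The median signal lay between 98.8 on transitional 5 and 151 on transitional 2. Of the B cell genes, Cd79a, a subunit of the B cell receptor, read 910 to 11303 on transitional and 4149 to 16736 on marginal arrays, whereas Pax5, a factor of B cell identity, was dim, with 4.2 to 99.4 on transitional and 58.7 to 127.5 on marginal arrays. Transitional 4 and transitional 5 stood apart. A score over 9 B cell genes, the mean deviation of log2 signal from each gene's 11-array mean, was -2.01 and -2.10 on these 2 arrays, against -0.18 to 0.47 on the other transitional and -0.13 to 1.45 on the marginal arrays. The same score over 8 genes of red cell precursors was 2.40 and 2.08 there, and over 16 genes of mitosis 1.54 and 1.33, the highest of the 11 arrays in both. Class differences of Odc1 and of the gene lists are given with and without them. In RNA of mixed cells, fewer cells of a type and less RNA per cell cannot be told apart.

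Myc itself did not separate the classes. Its probe set 1424942_a_at read 1535.6, 1806.5, 1319.5, 1166.0 and 1263.5 on transitional 1 to 5, against 1797.7, 707.5, 1378.2, 1503.9, 1301.9 and 3667.7 on marginal 1 to 6. The 5 transitional arrays lay within the range of the marginal ones, which held both the lowest and the highest signal. The highest, on marginal 6, was 2.03-fold above the next array. Myc averaged 1418 ± 256 on transitional and 1726 ± 1016 on marginal arrays (SD, n = 5 and 6), or 1338 ± 400 on the marginal arrays without marginal 6. The difference of -0.12 on the log2(signal + 16) scale, with a standard error of 0.33, was smaller than the spread between arrays (limma with Benjamini-Hochberg adjustment, adjusted p = 0.999). By spleen grade Myc had no order, with 1797.7 at the marginal grade, a mean of 1227 over 4 mild spleens, 2485 over 2 moderate, 1215 over 2 moderately severe and 1671 over 2 severe.

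The 3 probe sets of Mycn were dim. Their signals ran from 6.4 to 162.2 over all arrays, their means fell below the floor of 62.7 that admitted a probe set to the fit, and they were left out of it. The brightest of them, 1425922_a_at, read 86.9, 12.3, 70.4, 45.8 and 34.0 on transitional 1 to 5, against 121.6, 67.3, 79.0, 145.9, 15.3 and 11 on marginal 1 to 6. It was lowest on marginal 6, where Myc was highest, but the 3 probe sets did not vary together, with pairwise correlations between -0.22 and 0.45 over the 11 arrays. A signal this dim cannot be told apart from background with these values.

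Max, the obligate partner of Myc, spanned 3.98-fold over the arrays. It read 549.0, 1242.9, 770.5, 327.8 and 956.3 on transitional 1 to 5, against 312.5, 1118.0, 1228.7, 385.1, 422.2 and 494.0 on marginal 1 to 6. Each class held bright and dim arrays, and the class difference of 0.28 had a standard error of 0.43 (adjusted p = 0.999, limma). Max did not follow Myc. On marginal 6 it ranked 7 from the top.

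**Figure D1:**
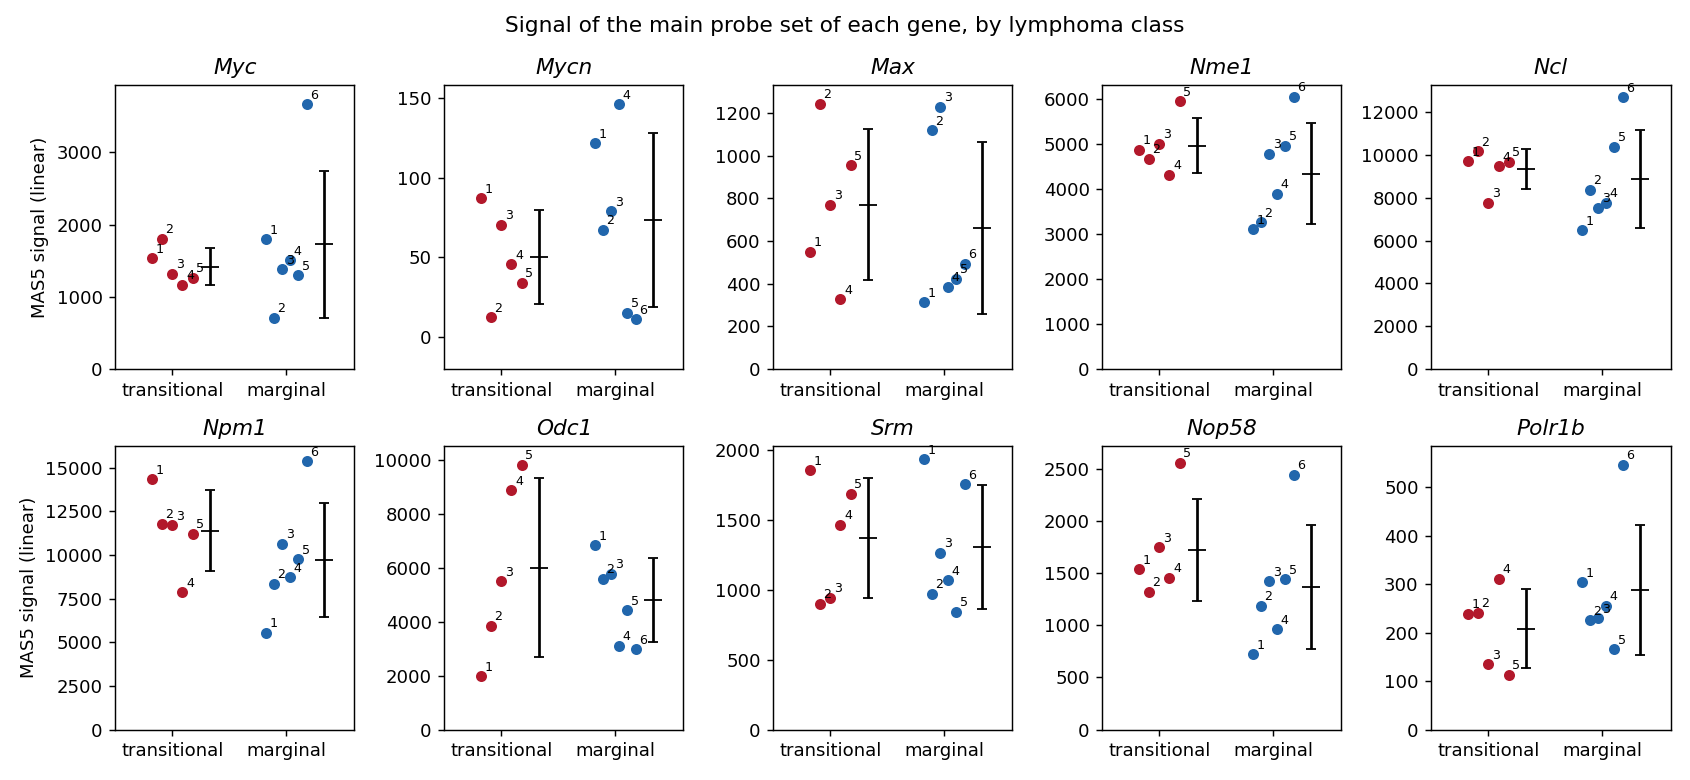
MAS5 signal (linear) of the brightest probe set of each of the 10 genes, with 5 transitional arrays left of 6 marginal arrays in each panel; numbers are the array numbers within a class, and the bar is mean ± SD. The classes overlap in every panel, and marginal 6 is the highest point for Myc, Nme1, Ncl, Npm1 and Polr1b.

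Over all probe sets no difference between transitional and marginal lymphomas was called. Of 13576 tested, 0.0% passed an adjusted p of 0.05 in limma, and 454 had an unadjusted p below 0.05, none of them among the 16 tested probe sets of the 9 genes other than Mycn. Of those 16, 13 had a higher value in the transitional group, against 42.4% of all tested probe sets. By the brightest probe set of each gene, 7 of the 9 genes were higher. Without transitional 4 and 5, 10 of the 16 were higher, against 7085 of all 13576 tested. The median difference over the 9 genes was 0.18 on the log2 scale, and over all tested probe sets -0.06. Without transitional 4 and 5 these medians were 0.08 and 0.02, and without marginal 4 the members' median was 0.08. The classes did not overlap for 0.228% of all tested probe sets and for 0 of the 16.

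Nucleolin, which works on ribosomal RNA genes and their transcript, was brighter in lymphomas of animals with larger spleens, a trend that did not pass adjustment over all probe sets. Its probe set 1415771_at read 9703.1, 10182.5, 7761.2, 9482.1 and 9688.8 on transitional 1 to 5, against 6479.2, 8368.5, 7537.9, 7776.9, 10380.2 and 12713.2 on marginal 1 to 6. The one low transitional array, transitional 3, came from the one transitional animal with a mildly enlarged spleen. The 2 highest marginal arrays came from the 2 marginal animals with moderate spleens. Signals thus ran from 9482 to 12713 on 6 arrays of moderate grade or above, and from 6479 to 8369 on 5 arrays of mild grade or below, with no overlap. That split was chosen after the signals were seen. Of all tested probe sets, 0.508% did not overlap between the same 2 sets of arrays, and of the 16 it was this 1.

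The other 3 nucleolin probe sets overlapped between these grades. Probe set 1415773_at had a median of 4548 over the 6 arrays of moderate grade or above and 3468 over the 5 of mild grade or below, 1415772_at had 654 at the higher and 466 at the lower grades, and 1456528_x_at had 612 at the higher and 323 at the lower grades. The fitted log2 value per grade step was 0.14 for 1415771_at, with a standard error of 0.06, 0.20 for 1415773_at, with 0.08, 0.10 for 1415772_at, with 0.10, and 0.27 for 1456528_x_at, with 0.09. None passed adjustment in limma (adjusted p = 0.9996 for each). Over all probe sets the trend with grade had 0.0% called and 292 with an unadjusted p below 0.05. Among the latter were 4 of the 16, namely 3 nucleolin probe sets and 1 of Npm1. Of the 16 values 12 were positive, against 45.1% of all tested. With class in the model as well, 0.0% were called, 298 had an unadjusted p below 0.05, 3 of them for nucleolin, and 13 of the 16 values were positive, against 53.4% of all tested.

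Npm1, which shuttles ribosomal particles out of the nucleolus, had its lowest and highest arrays where nucleolin probe sets 1415771_at and 1415773_at had them. Nucleolin 1415772_at was lowest on transitional 3, and 1456528_x_at was lowest on marginal 3 and highest on transitional 2. Npm1 probe set 1415839_a_at read 14330.4, 11802.0, 11708.8, 7873.1 and 11227.6 on transitional 1 to 5, against 5540.3, 8347.8, 10642.7, 8724.4, 9745.5 and 15376.4 on marginal 1 to 6. The lowest array, marginal 1, had the smallest spleen, and the highest was marginal 6. The second probe set, 1432416_a_at, tracked the first with r = 0.96 over the 11 arrays. The classes differed by 0.27 and 0.35 on the log2 scale, with standard errors of 0.24 and 0.23 (adjusted p = 0.999 for both, limma).

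Nop58, a core protein of the particles that guide methylation of ribosomal RNA, had 2 high arrays, 1 in each class. It read 1536.9, 1323.6, 1747.4, 1456.3 and 2556.3 on transitional 1 to 5, against 723.5, 1187.8, 1423.9, 963.6, 1443.8 and 2443.3 on marginal 1 to 6. Transitional 5 and marginal 6 stood above all others, and marginal 1 was again lowest. The class difference was 0.40 with a standard error of 0.29 (adjusted p = 0.999, limma).

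Polr1b was dim on transitional 5 and bright on marginal 6. It read 239.1, 240.8, 135.4, 310.7 and 113.6 on transitional 1 to 5, against 303.4, 225.2, 229.9, 255.6, 165.9 and 546.2 on marginal 1 to 6. On marginal 6 it was 1.76-fold above the next array. The class difference was -0.43 with a standard error of 0.32 (adjusted p = 0.999, limma).

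Nme1 was read by 2 probe sets that did not behave alike. Probe set 1424110_a_at was even, with 4880.2, 4674.8, 5010.2, 4321.6 and 5964.8 on transitional 1 to 5, against 3112.6, 3263.7, 4792.7, 3901.5, 4966.9 and 6056.1 on marginal 1 to 6. Probe set 1435277_x_at had 6905.2, 4579.5, 3113.0, 783.4 and 1609.4 on transitional 1 to 5, against 1038.3, 1052.8, 1392.1, 1382.3, 7124.7 and 8909.9 on marginal 1 to 6. The first spanned 1.95-fold over the arrays and the second 11.4-fold, and they correlated with r = 0.62. The suffix x marks probe sets whose probes can also hybridise to other transcripts. Nme2, a neighbouring paralogue, read 16976.8, 13981.9, 17688.9, 5601.4 and 8326.9 on transitional 1 to 5, against 7600.2, 10669.8, 12817.7, 15450.7, 17614.2 and 18018.6 on marginal 1 to 6, so it was lowest on transitional 4, marginal 1 and transitional 5. On marginal 2, 3 and 4, where 1435277_x_at read 1052.8, 1392.1 and 1382.3, Nme2 read 10669.8, 12817.7 and 15450.7. Its part in the signal of 1435277_x_at was not tested, and values of that probe set are uncertain as a measure of Nme1.

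Odc1, the rate-limiting enzyme of polyamine synthesis, had another order of arrays than the nucleolar genes. Its probe set 1438761_a_at read 1986.7, 3844.4, 5504.5, 8863.4 and 9813.1 on transitional 1 to 5, against 6836.6, 5597.5, 5773.5, 3104.2, 4428.2 and 2971.7 on marginal 1 to 6. The 2 highest arrays were transitional 4 and 5 and the lowest was transitional 1, so the transitional group spanned the whole range and the marginal group lay inside it. The 3 Odc1 probe sets varied together, with correlations of 0.90 to 0.97. The class difference was 0.18 with a standard error of 0.40 (adjusted p = 0.999, limma), and it was -0.39 without transitional 4 and 5. Among marginal lymphomas it read 6836.6 at the marginal grade, 3104.2 to 5773.5 at the mild and 2971.7 and 4428.2 at the moderate grade. Among transitional ones it was highest at the moderately severe grade, that of transitional 4 and 5, and lower at the severe one. Grade and the cell type scores that set these 2 arrays apart cannot be told apart here.

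Srm, the next enzyme of the same pathway, did not share that order. It read 1854.6, 900.4, 943.2, 1463.7 and 1686.5 on transitional 1 to 5, against 1931.8, 970.9, 1265.3, 1067.0, 843.8 and 1754.5 on marginal 1 to 6. Transitional 1, where Odc1 was lowest, was the second highest array for Srm, and the correlation of the 2 genes over the 11 arrays was 0.03. The class difference was 0.07 with a standard error of 0.28 (adjusted p = 0.999, limma).

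**Figure D2:**
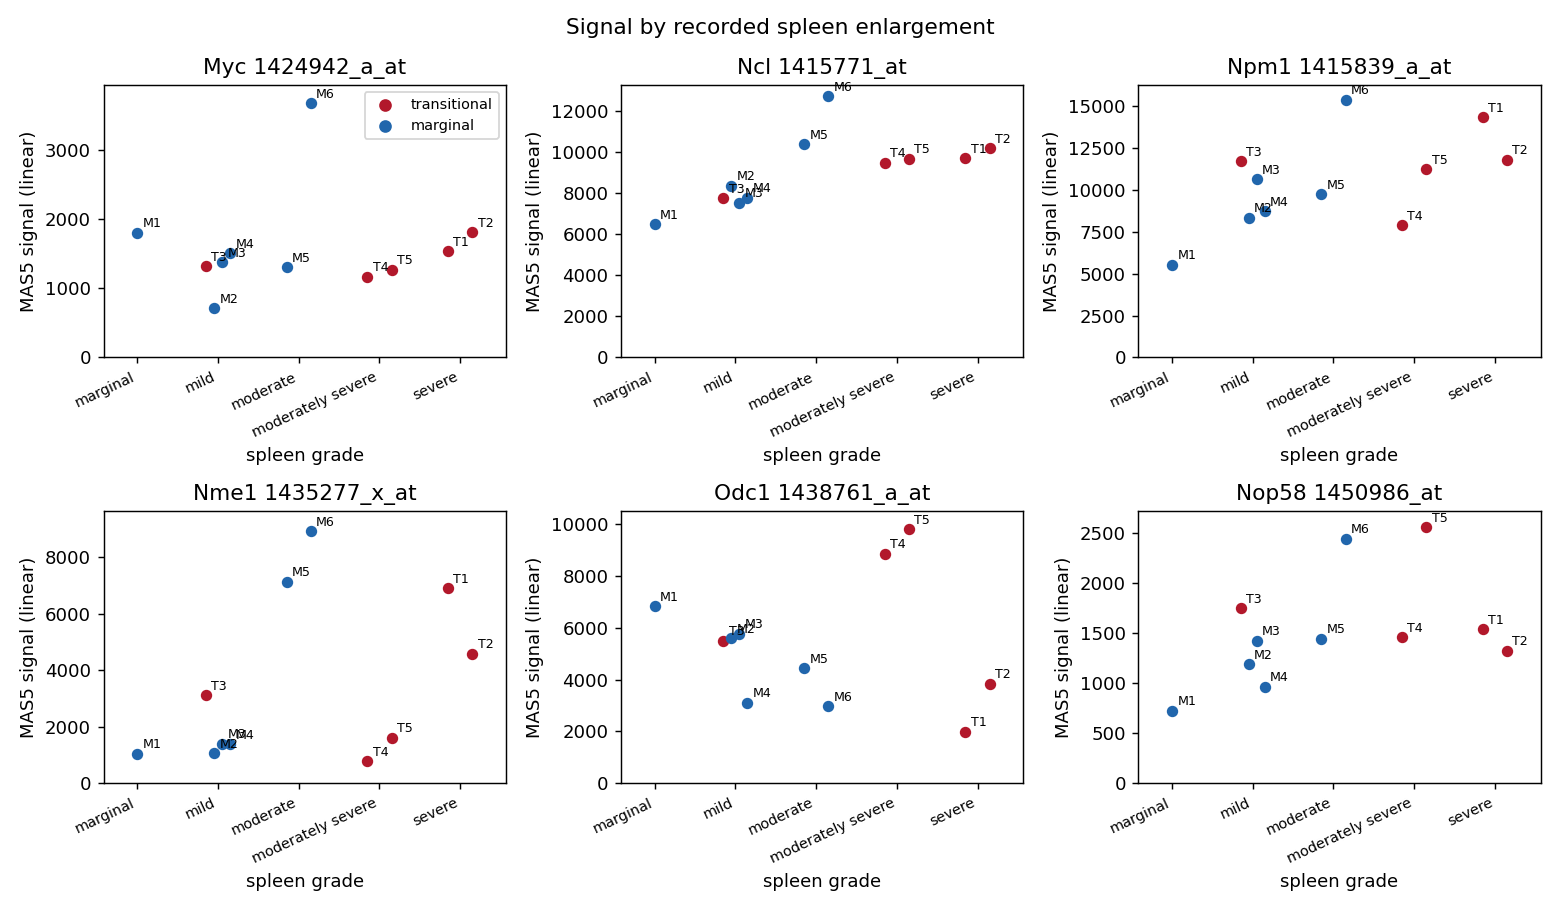
MAS5 signal (linear) against the recorded spleen grade for 6 probe sets, with transitional arrays (T) in red and marginal arrays (M) in blue, numbered within class. Ncl 1415771_at is above 9482 on the 6 arrays of moderate grade or above and below 8369 on the others. Odc1 is highest on the 2 moderately severe spleens, transitional 4 and 5, which also stood apart by cell type scores.

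The fit of grade with class, unlike that of grade alone, gave a different count without transitional 3, the mild spleen of the transitional class. When it was left out, grade with class called 1145 probe sets, 8.43% of those tested, 642 of them rising and 503 falling with grade. Among these were 4 of the 16. Npm1 rose by 0.52 and 0.50 per grade step by its 2 probe sets (adjusted p = 0.0473 and 0.0486, limma), Nme1 1435277_x_at rose by 1.83 (adjusted p = 0.0169, limma), and Odc1 1427364_a_at fell by 1.19 (adjusted p = 0.0302, limma). Without that array the transitional class held 2 severe and 2 moderately severe spleens, and the moderately severe ones were transitional 4 and 5, which stood apart by their B cell and red cell precursor scores. For grade alone 0 were called without it, and the values of Ncl 1415771_at and Npm1 1415839_a_at were 0.13 and 0.20 per step, against 0.14 and 0.18 with all arrays. With all arrays the 4 values of grade with class were 0.21, 0.24, 0.73 and -0.44, with an adjusted p of 0.9999 for each in limma.

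Marginal 6 carried the highest signal of 9 of the 16 tested probe sets, against 11.8% of all tested probe sets. The 9 belonged to Myc, both probe sets of Nme1, 3 of Ncl, both of Npm1, and Polr1b. Nop58 ranked 2 and Srm 3 from the top there, whereas Odc1 1427364_a_at was the lowest of the 11 arrays, at 261.3. This animal was the one with paralysis. The array was chosen for this count after the signals were seen. Its ratios of 3' to 5' control signal, 1.17 for actin and 0.681 for Gapdh, lay within the range of the other arrays, 1.11 to 1.44 and 0.635 to 0.839. Transitional 5 held the highest signal of 4 of the 16, the 3 of Odc1 and that of Nop58, against 11.1% of all tested probe sets.

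**Figure D3:**
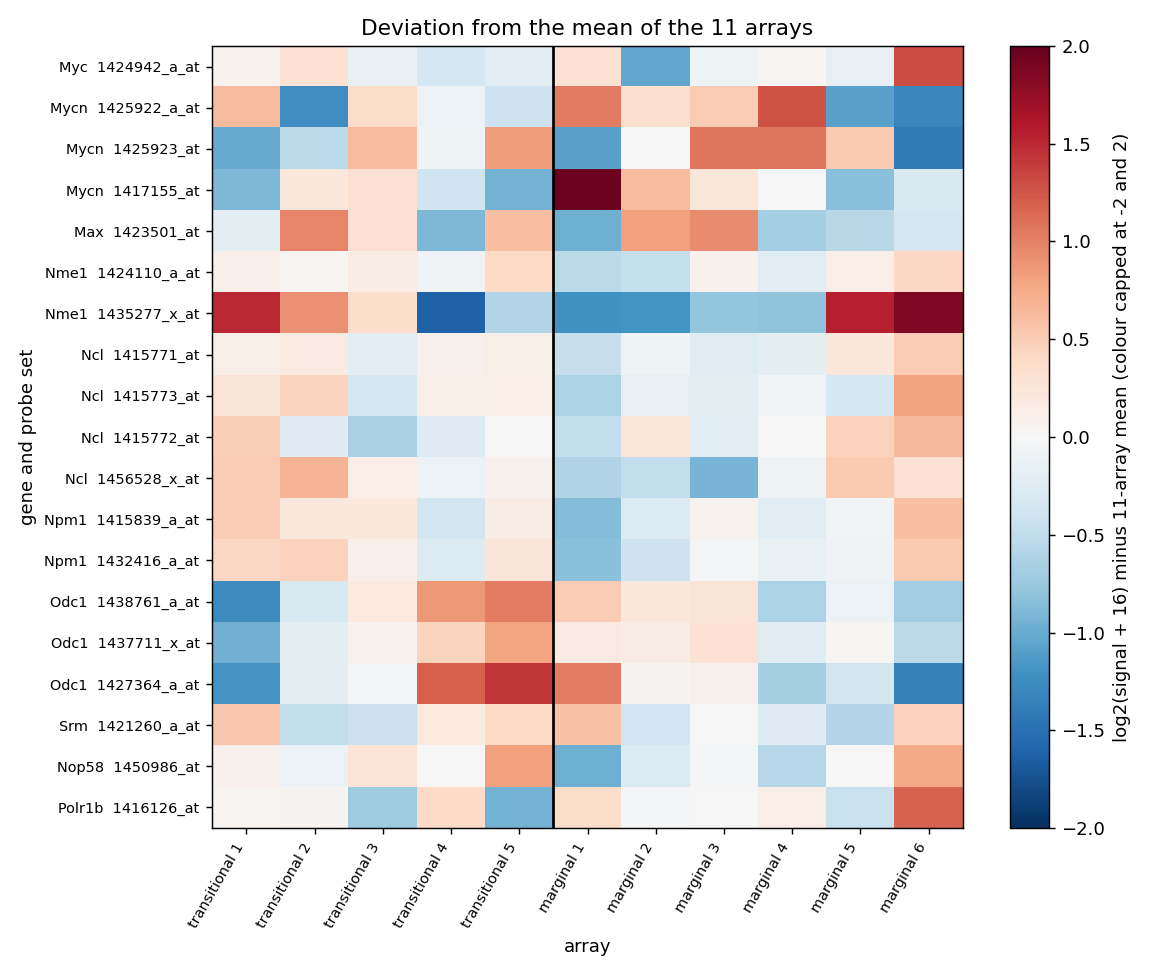
Deviation of log2(signal + 16) from the mean of the 11 arrays for all 19 probe sets, transitional arrays on the left of the black line and marginal arrays on the right, with colour limits at -2 and 2. The marginal 6 column is red for Myc, Nme1, Ncl, Npm1, Nop58 and Polr1b and blue for Mycn and Odc1.

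Whether the targets follow Myc from lymphoma to lymphoma was examined over the 11 arrays with 9 relations, each gene by its brightest probe set. None passed. The highest Pearson correlation was with Polr1b, r = 0.61 (permutation p = 0.0506, two-sided, adjusted p = 0.323) and Spearman rho = 0.54 (permutation p = 0.0945, adjusted p = 0.342). It was 0.82 within the 6 marginal arrays, 0.18 without marginal 6, and 0.43 without marginal 6 and marginal 2, the 2 arrays farthest from the median of Myc. For Nme1, Ncl, Npm1 and Srm r lay between 0.41 and 0.45, for Nop58 it was 0.25, for Max -0.28, for Mycn -0.35 and for Odc1 -0.44, with permutation p between 0.168 and 0.467 and adjusted p between 0.323 and 0.467. Spearman rho for these 8 lay between -0.60 (Odc1) and 0.51 (Npm1), with permutation p of 0.0565 to 0.947 and adjusted p of 0.342 to 0.947. Without the same 2 arrays r turned to -0.55 for Nme1, -0.65 for Nop58, -0.30 for Ncl and -0.16 for Npm1, and it was -0.45 for Odc1. For Srm it was 0.08. The positive relations of Myc with Ncl, Npm1, Nop58 and Nme1 were thus not seen without these 2 arrays. They held the lowest and the highest Myc signal, so leaving them out also narrowed its range. Among 7736 genes Polr1b ranked 139 by its correlation with Myc, Nme1 606, Ncl 715, Srm 734 and Npm1 756. Nop58 ranked 1842, Max 6482 and Odc1 7252.

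**Figure D4:**
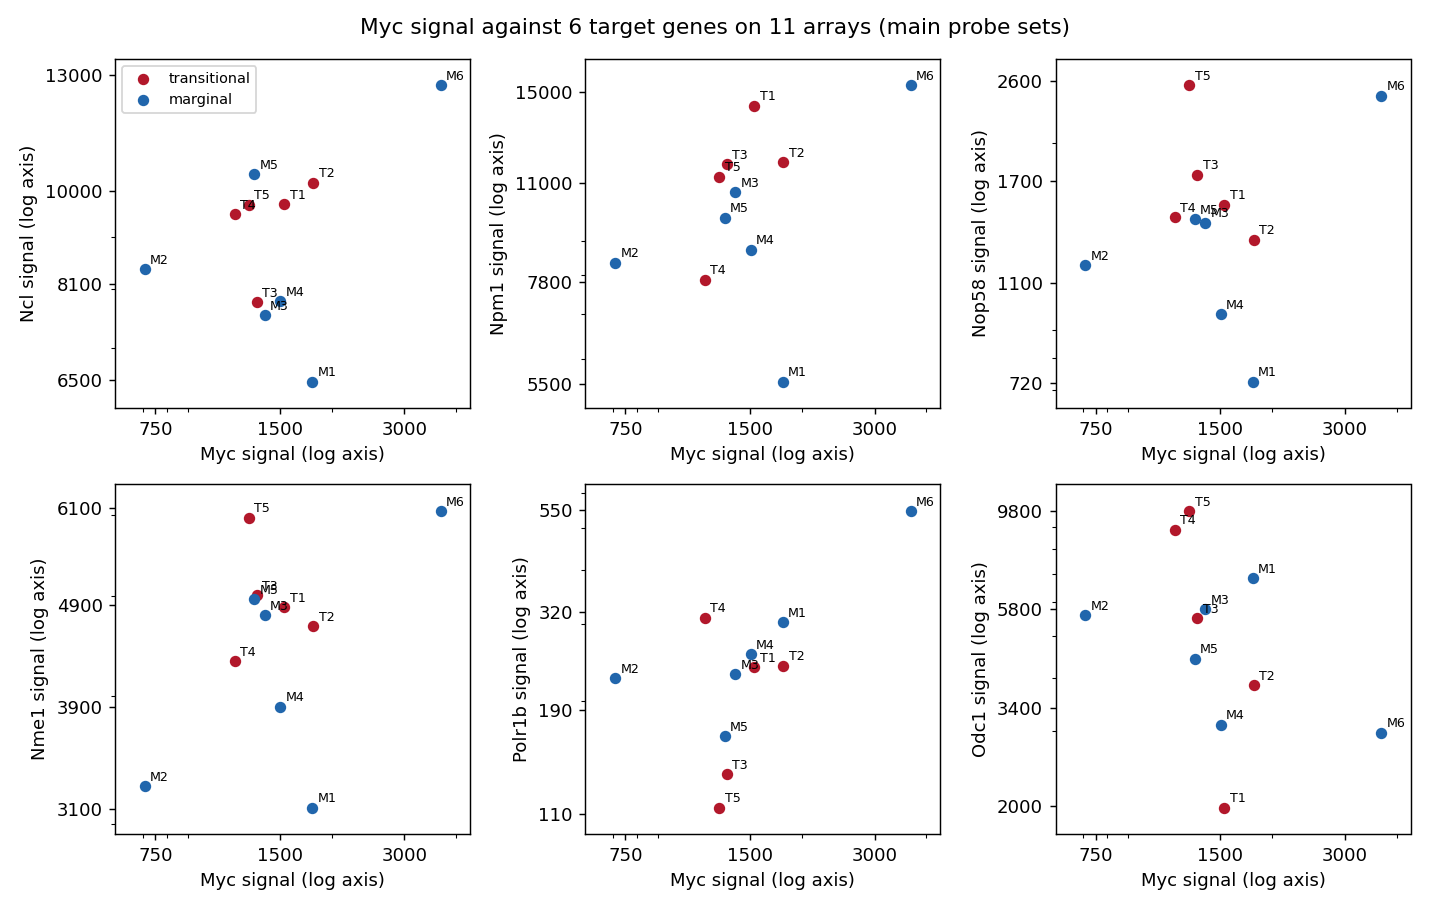
Signal of Myc (horizontal, log axis) against Ncl, Npm1, Nop58, Nme1, Polr1b and Odc1 (vertical, log axes) on 11 arrays, transitional in red and marginal in blue. Marginal 6 lies alone at the right at 3667.7, and among the other 10 arrays Nme1, Ncl, Npm1 and Nop58 show little order with Myc, with r between -0.23 and 0.18.

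Nme1, Ncl, Npm1 and Nop58 had higher correlations with each other than with Myc, whereas Polr1b and Srm had their highest with Myc, at 0.61 and 0.42. Nme1 and Nop58 correlated with r = 0.91, Nme1 and Npm1 with 0.83, Npm1 and Nop58 with 0.78, Ncl and Nop58 with 0.72, Nme1 and Ncl with 0.70, and Ncl and Npm1 with 0.70, over 11 arrays that were scaled alike and that differ in cell type scores. With the other targets Odc1 had r between -0.55 (Npm1) and 0.03 (Srm), Srm between 0.01 (Npm1) and 0.39 (Polr1b), and Polr1b between -0.37 (Odc1) and 0.39 (Srm). These are descriptions of signals on the same arrays. The genes whose signal was most like that of Myc among the 7736 were Nsun6 (r = 0.86), Nif3l1 (0.86), Nthl1 (0.85), Mcts2 (0.85) and Aen (0.84), and the least like were Ocel1 (-0.86), Ubl4b (-0.82), Cntd1 (-0.82), Tuft1 (-0.81) and S100a4 (-0.81). Marginal 6 was the extreme array for each of these 10, and without it r was 0.65 to 0.75 for the first 5 and -0.69 to -0.46 for the last 5.

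Odc1 was set against scores of red cell precursors, mitosis and B cells, and no relation passed adjustment. With the red cell precursor score its Pearson correlation over 11 arrays was 0.83 (permutation p = 0.00204, two-sided, adjusted p = 0.0612 over 30 relations) and Spearman rho was 0.83 (permutation p = 0.00272, adjusted p = 0.0816). The Pearson correlation was 0.72 without transitional 4 and 5, 0.64 without transitional 1 and transitional 4, the 2 arrays farthest from the median score, and 0.89 within the 6 marginal arrays. With the mitosis score r was 0.76 (permutation p = 0.00737, adjusted p = 0.111), rho was 0.76 (permutation p = 0.00959, adjusted p = 0.144), and r was 0.53 without transitional 4 and 5. With the B cell score r was -0.70 (permutation p = 0.0158, adjusted p = 0.158), rho was -0.61 (permutation p = 0.0509, adjusted p = 0.509), and r was -0.29 without transitional 4 and 5. The part of other cells in the Odc1 signal was not tested. In the other 27 relations, the 9 other genes with these 3 scores, r lay between -0.58 (Npm1 with the red cell precursor score) and 0.50 (Srm with the mitosis score), with permutation p of 0.0611 or above.

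**Figure D5:**
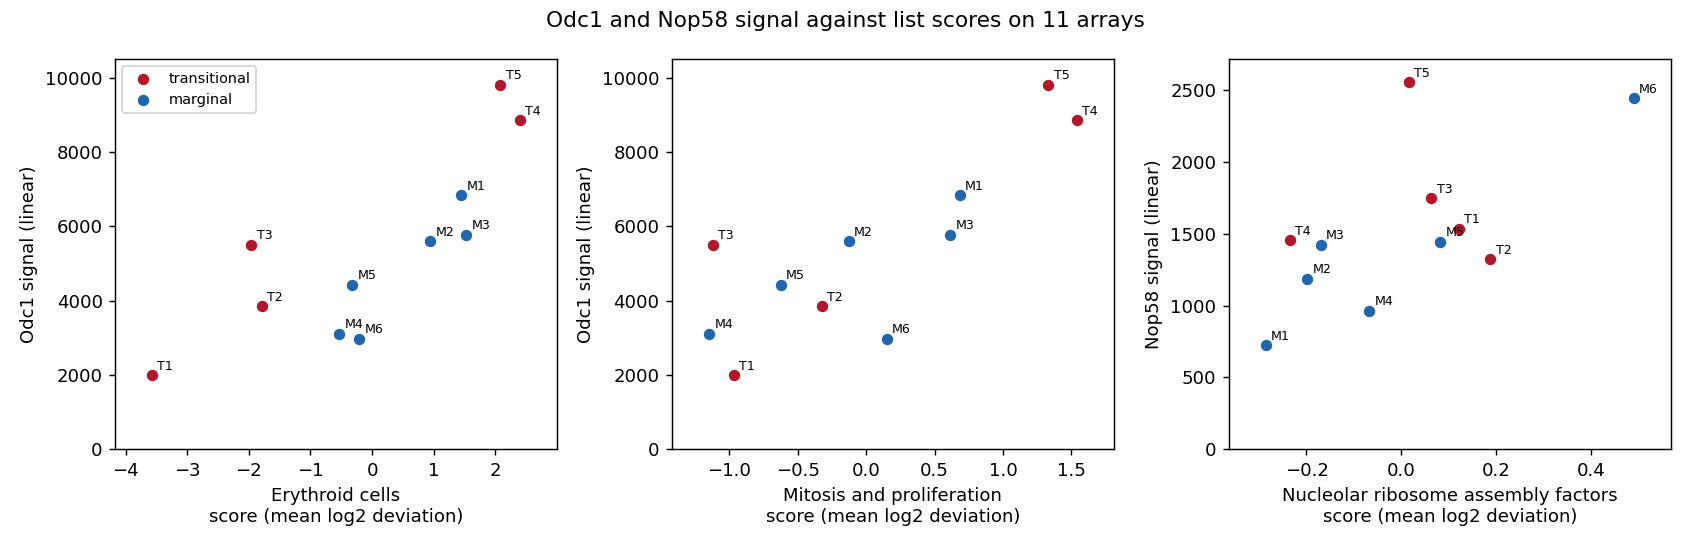
Odc1 signal against the red cell precursor score (left) and the mitosis score (middle), and Nop58 signal against the score of nucleolar assembly factors (right), for 5 transitional (T, red) and 6 marginal (M, blue) arrays; a score is the mean log2 deviation of the listed genes. Odc1 is highest on transitional 4 and 5, where the mitosis score is 1.54 and 1.33, and marginal 6 has the highest nucleolar score, 0.49.

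Other genes of the same processes were read from lists, and none of their genes was called by class or grade in limma. Counts by class without transitional 4 and 5, which held the lowest B cell scores, and without marginal 6 were added after the values were seen and are given where they moved. Over all tested probe sets 5750 were higher and 7826 lower by class, with a median of -0.06. Without transitional 4 and 5, 7085 of all tested were higher and 6491 lower, with a median of 0.02. Without marginal 6, 5689 were higher and 7887 lower, with a median of -0.07. The values of the 28 tested nucleolar assembly factors with grade were positive for 25 and negative for 3, against 45.1% positive of all tested probe sets. Their median was 0.08 per step, against -0.01 over all tested probe sets. Of the 28, 14 were highest on marginal 6, against 11.8% of all tested probe sets. Marker lists had values with grade too. These were negative for all 10 granulocyte genes (median -0.69), all 8 of red cell precursors (-0.56) and all 9 of B cells (-0.31). They were positive for 5 of 8 T cell genes (median 0.05), 4 of 5 natural killer cell genes (0.20) and 5 of 8 macrophage genes (0.20). The same held for 11 of 16 mitosis genes (0.03) and 1 of 2 stroma genes (0.21). The part of these marker lists in the trend was not tested. By class 17 of the 28 nucleolar factors were higher and 11 lower, with a median of 0.03, which was 0.16 without transitional 4 and 5 (24 higher, 4 lower) and 0.17 without marginal 6 (22 higher, 6 lower). Gnl3 (nucleostemin) had 0.22 per grade step and Lyar 0.14, with standard errors of 0.12 and 0.08, and by class Bysl differed by 0.31 and Ddx18 by -0.27, with standard errors of 0.22 and 0.16. On marginal 6 Gnl3 read 3091.1, against 1525.0 to 1932.5 on transitional arrays and 796.9 to 1986.2 on the other marginal ones.

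Of the 9 tested proteins of the RNA-guided modification particles, to which Nop58 belongs, 8 were positive with grade and 1 negative, with a median of 0.05. Of all tested probe sets, 45.1% were positive with grade. On marginal 6, 5 of the 9 were highest, against 11.8% of all tested probe sets. By class 4 of the 9 were higher and 5 lower, with a median of -0.02, and 8 were higher without marginal 6, with a median of 0.10. Nhp2 differed by 0.30 and Ruvbl2 by 0.29, with standard errors of 0.18 and 0.19. With grade Ruvbl1 and Ruvbl2 had 0.07 each. Of 14 subunits and factors of RNA polymerase I, 5 were higher and 9 lower by class, with a median of -0.04. On marginal 6, 5 of the 14 were highest, against the same 11.8%. Without transitional 4 and 5, 11 were higher and 3 lower, with a median of 0.21. The median over all tested probe sets turned positive there as well, from -0.06 to 0.02. Without marginal 6, 9 were higher and 5 lower, with a median of 0.03, against -0.07 over all tested. Polr1a, the largest subunit and partner of Polr1b in the enzyme, read 736.1 on marginal 6. It read 245.2 to 352.3 on transitional arrays and 302.1 to 391.9 on the other marginal ones. Its class difference was -0.36 with a standard error of 0.24, and the initiation factor Rrn3 differed by 0.35 with a standard error of 0.20. With grade Rrn3 had 0.13 and Taf1d 0.42 per step, with standard errors of 0.08 and 0.26.

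Of 9 other tested genes of the Myc network, 7 were lower in transitional lymphomas, with a median of -0.55, none called. They were Mxd1, Mxd3, Mxd4, Mxi1, Mnt, Mga, Mlx, Mlxip and Zbtb17. Without transitional 4 and 5, 6 of 9 were lower and the median was -0.25. Mga, a Max partner, differed by -0.78 and Mnt, a repressor that binds Max, by -0.64, with standard errors of 0.32 and 0.28. Mnt read 386.9, 422.5, 352.1, 161.3 and 218.2 on transitional 1 to 5, against 445.1, 469.1, 372.7, 692.4, 558.2 and 325.2 on marginal 1 to 6, so its 2 lowest arrays were those with the lowest B cell score. Per grade step Mxd3 had -0.42 and Mnt -0.17, with standard errors of 0.21 and 0.12. Mxd3, a Max partner of cells in cycle, read 419.7 and 444.2 on transitional 4 and 5, and 28.8 to 188.5 on the other transitional arrays.

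The other polyamine genes did not move as a group. By class 3 of 7 were higher and 4 lower, with a median of -0.06, or -0.12 without transitional 4 and 5. Dohh and Dhps, enzymes of a spermidine-derived modification of a translation factor, differed by 0.28 and -0.28, each with a standard error between 0.21 and 0.23. With grade Oaz2, an inhibitor of Odc1, had -0.14 and Sat1, which acetylates spermidine, -0.08. Smox (spermine oxidase), named after its values were seen, had its highest signals on transitional 4 and 5 and its lowest on transitional 1, as Odc1 did, but was low on transitional 3, with 103.7, 404.4, 191.0, 3067.6 and 1794.9 on transitional 1 to 5, against 1287.5, 916.6, 1323.9, 479.7, 414.0 and 470.6 on marginal 1 to 6. Of 4 other nucleoside diphosphate kinases 2 were higher and 2 lower by class, with 1 higher and 3 lower without transitional 4 and 5, and Nme2 differed by -0.20 and Nme4 by -0.47, with standard errors of 0.33 and 0.62. With grade Nme7 had -0.01 and Nme2 0.02.

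Of 17 further growth and metabolism targets of Myc, 13 were higher and 4 lower in transitional lymphomas, with a median of 0.25. Without transitional 4 and 5, 7 were higher and 10 lower, with a median of -0.12, so the direction of this list turned. None was highest on marginal 6 and 13 were highest on transitional 4 or 5, as were all 16 tested genes of the mitosis list. Of all tested probe sets, 11.8% were highest on marginal 6, 11.1% on transitional 4 and 11.1% on transitional 5. The part of cell makeup in these values was not tested. Shmt2, the mitochondrial serine hydroxymethyltransferase, differed by 0.74 with a standard error of 0.29, and Ctps, which makes CTP, by 0.46 with a standard error of 0.26. Shmt2 read 1259.3, 1944.9, 969.2, 1750.6 and 1175.4 on transitional 1 to 5, against 967.5, 407.1, 737.4, 791.6, 1186.0 and 1067.5 on marginal 1 to 6, so it was also high on transitional 2. With grade Shmt2 had 0.32 and Ctps 0.15 per step. Tfrc, the transferrin receptor, named after its values were seen, read 20704.2 and 15913.5 on transitional 4 and 5, 922.2 to 2873.8 on the other transitional arrays, and 2272.1 to 11677.8 on marginal arrays.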

How the data were processed

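Biotin-labelled cRNA of 11 lymphomas, 1 array each, was measured on 1-colour expression arrays. The deposited table holds linear signal intensity per probe set, made by the authors with MAS5 per the submitters' processing notes; neither version nor scaling target is given in the sources used here. A mean that left out 2% of probe sets at each end was equal on all arrays. Of 22690 probe sets, 64 controls were left out; 20380 were annotated to 1 gene, 691 to several and 1555 to none, and RefSeq changed 0 symbols. No array's column was left unassigned and no arrays were identical. Signals carry no detection calls. The number of arrays limits precision, and p-values set a difference, trend or correlation against the variation between these lymphomas.

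Signals were analysed as log2(signal + 16), an offset that understates changes of dim probe sets. Probe sets in the upper 60% by mean (13576, for 7740 genes) were fitted with limma 3.58.1 (lmFit and eBayes with trend, R 4.3.3), two-sided, with Benjamini-Hochberg adjustment at 0.05, for class (transitional minus marginal), spleen grade, and grade with class. The script was tested on simulated data. Correlations used 100000 permutations (scipy 1.17.1) and adjustment within each family. A gene's level is its brightest probe set. Members and lists were chosen with earlier results of these data known. The 10 genes are named in full. Of each list the 2 genes with the smallest p by class and by grade are named in the text for the process lists (Myc network, polyamine synthesis, nucleoside diphosphate kinases, RNA polymerase I, RNA-guided modification particles, nucleolar assembly, other Myc targets). The marker lists for mitosis, B cells and red cell precursors are given as scores. Lists for T cells, natural killer cells, granulocytes, macrophages and stroma are given in the closing section. The titles' numbers did not pair the samples (correlations of deviations between -0.45 and -0.09 over 5 numbers). Alternatives were another offset (1 or 64), quantile or median scaling, no filter or the upper 40%, no trend, array weights, a replicate block, animals that failed to nest, and leaving out arrays.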

Additional observations from a re-analysis of the deposited data

Results flagged for a closer look

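Of 68 sets of 5 or 6 arrays examined for an array far from the rest of its class, 4 were picked out, and chance picks about 1 in 20. Ncl 1415771_at was 7761.2 on transitional 3, below the other 4 transitional arrays at 9482.1 to 10182.5. The score of the RNA-guided modification particles (Box C/D and H/ACA ribonucleoproteins) was 0.186 on transitional 5, above the other transitional arrays, and 0.442 on marginal 6, above the other marginal arrays. The macrophage score was 1.33 on marginal 2, where Myc was lowest at 707.5. That score was higher still on transitional 2, at 2.86, where Myc read 1806.5.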

How the results depend on the processing

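No probe set was called by class or by spleen grade under any alternative run, and the median class difference over the members stayed positive, from 0.0769 to 0.303. Median scaling moved the median of all probe sets by 0.119; relative to it the members' median was 0.24, against 0.234 as reported, and the same gap was 0.0653 without transitional 4 and 5. The number of member probe sets higher in transitional lymphomas lay between 10 and 14. The fit of grade with class called 0 to 1145 probe sets when each array was left out in turn, 1145 without transitional 3 and 1 without transitional 1, and 0 otherwise. With the replicate block, which the samples' numbers did not support, 0 probe sets were called by class or grade and the median was 0.218. Among member values the sign turned in 28 of 351 by class (7 of 16 probe sets), 12 of 319 by grade (7) and 6 of 303 by grade with class (2); none of the class or grade values was called. Among animals that failed to nest, Myc differed by 0.497, Max by -0.732 and Ncl 1456528_x_at by 0.966, against -0.12, 0.28 and 0.47 as reported; the cause was not tested. Dim signals limit what can be said of Mycn.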

Other observations

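Scores of cell types other than B cells spread widely over the arrays. The T cell score ran from -3.72 to 2.31 on transitional and from -1.02 to 1.07 on marginal arrays, and the natural killer cell score from -1.27 to 1.87 on transitional and from -1.14 to 1.04 on marginal arrays. The granulocyte score ran from -2.97 to 2.70 on transitional and from -2.36 to 3.26 on marginal arrays, and the macrophage score from -1.42 to 2.86 on transitional and from -0.74 to 1.33 on marginal arrays. The stroma score, over 2 tested genes, ran from -1.18 to 2.13 on transitional and from -0.27 to 0.57 on marginal arrays. The lymphoma of marginal 6 was recorded as positive for the surface protein CD5 by flow cytometry, and the Cd5 probe set read 103.8 there, against 277.2 to 950.2 on the other marginal arrays. Cd5 is also a T cell gene, and marginal 6 had the lowest T cell score of the marginal arrays. The other 10 lymphomas have no flow cytometry result in the labels.

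Max, Mxi1 and Mxd1 pair at the same DNA sites, and Mxi1 and Mxd1 antagonise Myc. Mxi1 read 369.2, 232.3, 289.7, 2017.1 and 1523.9 on transitional 1 to 5, against 1572.4, 1095.0, 1333.3, 563.9, 569.9 and 664.0 on marginal 1 to 6, and Mxd1 was highest on marginal 1 at 457.7. Both were named after their values were seen.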
